A study of Mus musculus with 36 samples.

Results

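The genes described here are 36 members of the p53 pathway: established transcriptional targets of p53, together with *Trp53*, which encodes p53 itself. They were chosen by name and found by Ensembl identifier among the 30125 genes that 3 tables of normalized counts hold between them, from bulk RNA-seq of cultured mouse nephron progenitor cells (NPCs), the cells of the embryonic kidney that renew themselves and give rise to nephrons. All 36 were present in each table at an average of 10 or more normalized counts, so none was lost to the filter on low values. A normalized count is the number of reads on a gene divided by 1 size factor per library, and it is not divided by gene length, so levels are compared here between libraries and not between genes.

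p53 is a transcription factor that Mdm2, a ubiquitin ligase, keeps scarce by marking it for destruction. DNA breaks and other stresses free p53 from Mdm2; it then binds pairs of short half-sites near its targets and raises genes that halt the cell cycle, genes that promote cell death, genes that repair DNA, and *Mdm2* itself, which closes a feedback loop. Control of p53 takes place largely on the protein, which RNA-seq does not measure. In the developing kidney, excess p53 activity is known to deplete nephron progenitors. Cas9 acts by making a double-strand break at the place its guide RNA names, whereas Cre recombines a pair of loxP sites without leaving a free end.

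All NPCs came from kidneys of mouse embryos (Swiss Webster or C57Bl/6 mothers) and were cultured in NPEM, a nephron progenitor expansion medium, with CHIR99021 (CHIR), an inhibitor of GSK3 that stabilises β-catenin. Doses of 0 µM, 1.25 µM and 5 µM are called no, low and high CHIR. In the Tcf/Lef series, NPCs of the genotype Cas9-eGFP, which make Cas9 and GFP throughout, received guides to *Tcf7l1*, *Tcf7l2*, *Tcf7* and *Lef1* together (QKO) or a guide to GFP. They were then held for 48 h in low CHIR and for a further 24 h in low CHIR (2 QKO and 3 control libraries) or high CHIR (3 QKO and 3 control libraries). Each QKO guide was given at a fraction of the amount used for a guide alone. In the Ctnnb1 series, Cas9-eGFP NPCs received guides to *Ctnnb1*, the gene of β-catenin, or the guide to GFP, and NPCs homozygous for a conditional *Ctnnb1* allele (B-catenin_c_c) received Cre mRNA or none. These were held for 24 h in low CHIR and for 24 h more in low or high CHIR, with 2 libraries per group. In both series mCherry mRNA was given as well, and mCherry-positive cells were sorted. Wild Type NPCs, neither transfected nor edited, gave 3 libraries at each of the 3 CHIR doses. The GFP guide also directs Cas9 to cut, so each Cas9 comparison sets guides to 1 or 4 target genes against a guide to the GFP gene, not against intact DNA. The B-catenin_c_c cells received no guide. The sources used here do not say whether the *Ctnnb1* guides were given together.

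The guide sequences are shown because which genes were targeted, and how many, differs between the comparisons. The number of genes targeted changes together with the genes lost, the hold of 48 h or 24 h and the guide amount. These cannot be told apart here. The sequences come from the study's list of guides. Positions are in GRCm38 with exons from GENCODE vM21, and capitals mark the NGG motif next to the target, which Cas9 needs and which is not part of the guide.
Ctnnb1 sgRNA1: atgagcagcgtcaaactgcgTGG
Ctnnb1 sgRNA3: agccaagcgctggacattagTGG
Ctnnb1 sgRNA5: agctacttgctcttgcgtgaAGG
Ctnnb1 sgRNA6: gagattatgcagtgtcgtgaTGG
Tcf7l1: cttaaaaaaagcgccatcctGGG
Tcf7: agctgggggacgccatgtggAGG
Tcf7l2: ttagcggccaagaggcaaga
Lef1: ctcccaggaaagcatccaga
The *Ctnnb1* guides match chr9:120950987-120951006 and chr9:120951011-120951030 in exon 4, chr9:120950729-120950748 in exon 3 and chr9:120951618-120951637 in exon 6 of the transcript ENSMUST00000007130, each on the minus strand and in coding sequence. The guide to *Tcf7l1* matches chr6:72788307-72788326 (plus strand) in exon 3 of ENSMUST00000069536, and the guide to *Tcf7* matches chr11:52261584-52261603 (plus strand) in exon 3 of ENSMUST00000086844, both in coding sequence. The guides to *Tcf7l2* and *Lef1* were searched in the same way and matched within 1 exon in 0 of 12 and 0 of 4 coding transcripts. No position or NGG motif is therefore given for them. None of the 36 p53 pathway genes was a target.

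RefSeq promoter windows (GRCm38.p6, from 250 bases before to 50 after each gene's start site) were at hand for 27 of the 36 members. They were searched for a pair of p53 half-sites at most 1 base apart, with at most 1 letter off the motif in the pair; the half-site reads the same on both strands. Such a pair was present in the windows of 3 of the 27 members (11.1%), against 35 of 27025 genes (0.13%) in all. They are printed with the core of each half-site in capitals, because *Cdkn1a* and *Ccng1* were among the members that rose in QKO. *Rps27l* was not called there by limma.
Cdkn1a: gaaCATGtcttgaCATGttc
Ccng1: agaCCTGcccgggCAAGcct
Rps27l: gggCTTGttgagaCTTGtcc
The pair at *Cdkn1a* lies at chr17:29090928-29090947 (plus strand), 51 bases upstream of the RefSeq start site, that at *Ccng1* at chr11:40755462-40755481 (minus strand), 195 bases upstream, and that at *Rps27l* at chr9:66946296-66946315 (plus strand), 117 bases upstream. In GENCODE vM21 *Rps27l* starts at chr9:66946086, so by that annotation its pair lies within the gene. The members were chosen as established p53 targets, so a higher share among them than among all genes was likely in advance. A match is a description of the letters and does not show that p53 bound there.

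The libraries held between 13089780 and 76071568 reads on genes. The labels do not say whether replicates are separate cultures or litters, so the p-values measure the spread between these libraries, which may be technical. Some libraries stood apart from their group for the p53 targets. In the Tcf/Lef series, low CHIR control replicate 3 lay above both other low CHIR controls for 24 of 36 members, by a median of 0.43 on the log2 scale against 0.03 over all genes. The counts of called members in QKO and in the doses of these controls are given with and without it. Among Wild Type libraries, no CHIR replicate 1 lay above both others of its dose for 26 of 36 members (median 0.45), no CHIR replicate 2 below both for 30 (median -0.47) and low CHIR replicate 1 above both for 23 (median 0.39), against -0.09 to 0.07 over all genes. The Wild Type results without each of these are given beside them. In bulk RNA, fewer cells of a type and less RNA per cell cannot be told apart. The targeted genes were read over their whole length, which does not show the edit. RNA counts are therefore no measure of how well the removal worked. By protein staining, the study reported that β-catenin fell markedly both with the guides and with Cre. It also reported that single guides removed most of Tcf7l1, Tcf7l2 and Lef1 and part of Tcf7. *Tcf7* was lower in high CHIR QKO libraries (-1.64, adjusted p = 0.0175), while *Lef1* (-2.12, adjusted p = 0.131), *Tcf7l2* (-0.35, adjusted p = 0.513) and *Tcf7l1* (0.15, adjusted p = 0.778) were not past the threshold. With the replicate number as a block, described below, *Lef1* was called as well (adjusted p = 0.0476). In low CHIR QKO none of the 4 was called: *Tcf7* was at -1.23 (adjusted p = 0.904) and *Tcf7l1* at -0.88 (adjusted p = 0.82), both at an unadjusted limma p under 0.05, *Tcf7l2* at -0.15 (adjusted p = 0.93) and *Lef1* at 0.13 (adjusted p = 0.981). *Ctnnb1* counts fell with its guides in high CHIR (log2 fold change -0.89, adjusted p = 0.0429). The log2 fold change was -1.16 in low CHIR (adjusted p = 0.252), and with Cre it was -0.33 and 0.06 (adjusted p = 0.657 and 0.917), none of them called. Nephron progenitor markers (*Six2*, *Cited1*, *Eya1*, *Osr1*, *Meox1*, *Tmem100*) were all read in every library of both knockout series. In Wild Type, *Osr1* was at 0 in 3 libraries and *Meox1* in 1.

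The first question was whether guides to 4 genes in high CHIR went with higher p53 target levels. In QKO, 11 of the 36 members rose and none fell, against 2.05% of all 15878 genes tested that rose (326 genes) and 0.491% that fell (78 genes). A member is called here when limma's adjusted p is under 0.05 and the log2 fold change is at least 0.5. Over the 36 members the median log2 fold change was 0.69, against 0.001 over all genes, and 29 of the 36 were above 0. The 3 QKO libraries lay wholly above the 3 controls for 25 members and wholly below for 1, *Xpc*; over all genes 11.1% lay wholly above and 8.8% wholly below. The risen members were *Cdkn1a*, *Ccng1*, *Trp53inp1*, *Aen*, *Fas*, *Eda2r*, *Sesn2*, *Dcxr*, *Gdf15*, *Zmat3* and *Ptprv*.

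**Figure D1:**
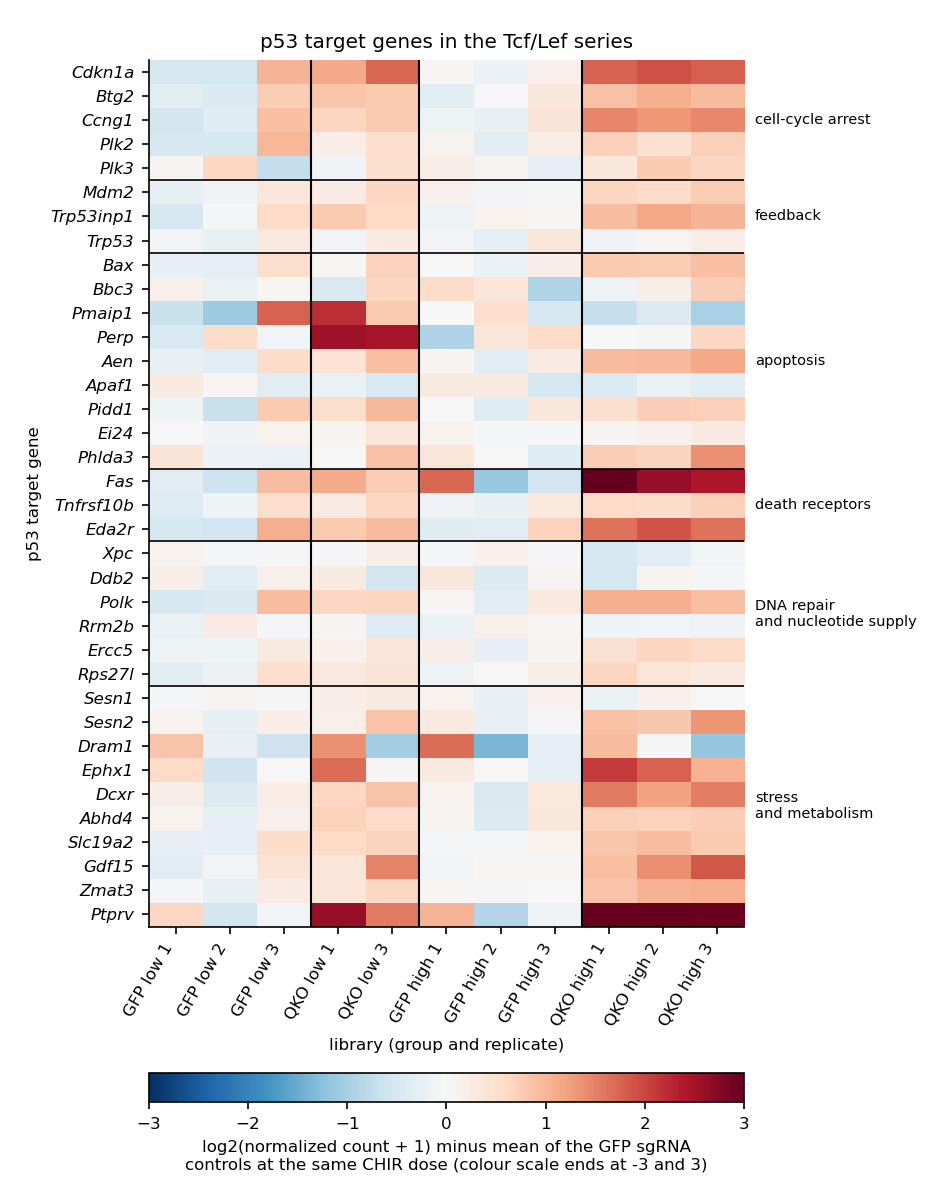
Each cell shows log2(normalized count + 1) of 1 p53 pathway gene (rows, grouped by role) in 1 library of the Tcf/Lef series (columns), minus the mean of the GFP sgRNA controls at the same CHIR dose. Red cells run through most rows of the 3 high CHIR QKO libraries, where 29 of 36 members are above 0 in the mean, and control low CHIR replicate 3 is red in many rows as well.

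The count differed between fits. Libraries with the same replicate number in this series deviated together, and with the replicate number as a block 20 members rose, against 5.3% of genes. These were the 11 above and *Btg2*, *Mdm2*, *Bax*, *Tnfrsf10b*, *Polk*, *Ercc5*, *Ephx1*, *Abhd4* and *Slc19a2*. DESeq2 on recovered reads called 11 higher, against 2.1% of genes, of which 10 were the same and *Ephx1* stood in place of *Fas*. edgeR's quasi-likelihood test called 3 (0.8% of genes), *Dcxr*, *Zmat3* and *Ptprv*, and had 20 members at an unadjusted p under 0.05, as did 9.43% of genes. Both count tests leave out high CHIR control replicate 2. Without control replicate 1, 2 or 3 the limma count was 6, 3 or 8, and without QKO replicate 1, 2 or 3 it was 5, 3 or 4. Without low CHIR control replicate 3, which enters only through the shared estimate of spread, it was 16. *Btg2*, *Mdm2*, *Bax*, *Polk* and *Slc19a2* were called in that fit and in one with the libraries of the compared groups alone, where *Ephx1* was too. *Dcxr*, *Zmat3* and *Ptprv* kept an adjusted p under 0.05 under every alternative run.

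Among the genes of cell-cycle arrest, 2 of 5 rose. *Cdkn1a*, which encodes the cyclin-dependent kinase inhibitor p21 and is the best known target of p53, had 5180.3, 5746 and 5295 normalized counts in the 3 high CHIR QKO libraries and 1563, 1357 and 1688 in the controls, a 3.53-fold difference on the log2(count + 1) scale used throughout (log2 fold change 1.82, SE 0.33, adjusted p = 0.0136). The groups were far apart and the QKO libraries differed little among themselves, 5407 ± 299 (SD, n = 3) against 1536 ± 167 (SD, n = 3) in the controls. *Ccng1*, cyclin G1, had 3657, 3266 and 3624 counts in QKO and 1188, 1134 and 1742 in controls (log2 fold change 1.40, SE 0.31, adjusted p = 0.0344). Every QKO library lay above every control. *Btg2*, an antiproliferative cofactor, had 1831, 2096 and 1903 against 790.3, 982 and 1256 counts, groups that did not overlap, and missed the threshold (log2 fold change 0.97, SE 0.27, adjusted p = 0.0876). It was called with the replicate block (adjusted p = 0.0214), with the libraries of the compared groups alone (adjusted p = 0.0196) and without low CHIR control replicate 3 (adjusted p = 0.00643). *Plk2* and *Plk3*, polo-like kinases of the stress response, had log2 fold changes of 0.64 and 0.59 and were not called (adjusted p = 0.42 and 0.46).

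Of the 3 feedback genes, *Trp53inp1* rose, a nuclear protein that promotes p53-dependent arrest and death. It had 1209, 1432 and 1305 counts in high CHIR QKO and 579, 693 and 652 in controls (log2 fold change 1.04, SE 0.22, adjusted p = 0.0296), with no overlap. *Mdm2*, the ligase that restrains p53, had 1744, 1685 and 1917 counts in QKO and 1223, 1061 and 1089.8 in controls. All QKO libraries were above all controls, but the difference was just outside the threshold (log2 fold change 0.66, SE 0.16, adjusted p = 0.0578) and inside it with the replicate block (adjusted p = 0.0132). *Trp53* had 6109, 6852 and 7481 counts in QKO and 6192, 5367 and 8397 in controls. These ranges overlapped and the difference was near 0 (log2 fold change 0.06, SE 0.18, adjusted p = 0.924).

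The apoptosis genes had 1 riser among 9 members and a median log2 change of 0.26. The riser was *Aen*, an exonuclease that takes part in DNA fragmentation, with 2707, 2755 and 3087 counts in QKO and 1483, 1128 and 1681 in controls (log2 fold change 1.01, SE 0.23, adjusted p = 0.0424). *Bax*, the effector that permeabilises mitochondria, had 2744, 2721 and 2976 against 1600.5, 1395 and 1846 counts and missed the threshold (log2 fold change 0.81, SE 0.22, adjusted p = 0.0892). It was called with the block (adjusted p = 0.00581), with the compared groups alone (adjusted p = 0.0156) and without low CHIR control replicate 3 (adjusted p = 0.0217). Both genes had QKO libraries wholly above the controls. By contrast *Bbc3* (PUMA) and *Pmaip1* (NOXA), which trigger mitochondrial death, were spread within groups: *Bbc3* had 34.8, 43.6 and 65.6 against 56.9, 49.6 and 20.2 counts and *Pmaip1* 227, 273 and 187 against 366, 518 and 258. Neither was called (log2 fold changes 0.26 and -0.69, adjusted p = 0.828 and 0.661). *Perp*, *Apaf1*, *Pidd1*, *Ei24* and *Phlda3* lay between -0.31 and 0.93 with none called. A stretch of 12.2% of the exon bases of *Bax* is shared with a gene on the same strand.

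Receptors of the tumour necrosis factor receptor family rose in 2 of 3 cases. *Fas* had 105, 66.5 and 58.8 counts in high CHIR QKO and 35.4, 4.05 and 6.38 in controls (log2 fold change 2.77, SE 0.64, adjusted p = 0.0431). The groups did not overlap, but control replicate 1 was well above the other controls. *Eda2r*, the X-linked ectodysplasin receptor, had 722, 864 and 724 counts against 183, 186 and 378 (log2 fold change 1.71, SE 0.40, adjusted p = 0.047), with no overlap. *Tnfrsf10b*, the TRAIL receptor, had 628, 617 and 687 against 387, 360.0 and 525, no overlap either, and was called only with the block (log2 fold change 0.62, SE 0.23, adjusted p = 0.226, and 0.0318 with the block).

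In DNA repair and nucleotide supply, 0 of 6 members were called by limma. The median log2 fold change was 0.15. By edgeR and DESeq2 none was called either, and 3 of the 6 had an unadjusted limma p under 0.05, as did 14.3% of all genes. *Polk*, a translesion polymerase, was the highest at 1.01 (adjusted p = 0.14, or 0.0446 with the block), with 487, 483 and 430.0 counts in QKO and 238, 182 and 284 in controls. *Xpc*, a damage sensor of nucleotide excision repair, was the lowest at -0.31 (adjusted p = 0.374), with 396, 444 and 528 counts against 537, 611 and 542. *Ercc5* (log2 fold change 0.56), a nuclease of the same repair route, was called only with the block (adjusted p = 0.0485). *Rps27l*, *Ddb2* and *Rrm2b* lay at 0.43, -0.15 and -0.13. The exons of *Ddb2* share 23.8% of their bases with *Acp2* on the other strand, and the kit does not mark strand, so its reads may include those of *Acp2*.

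Stress and metabolism held the most risers, 5 of 10 members, and the median was 1.00. *Ptprv*, a protein tyrosine phosphatase that mouse p53 is known to induce, had 639, 608 and 327 counts in high CHIR QKO and 85.7, 22.2 and 38.3 in controls, the highest fold among the 36 members (11.7-fold, log2 fold change 3.55, SE 0.48, adjusted p = 0.00256). *Dcxr*, a xylulose reductase, had 399.8, 312 and 391 counts against 145, 99.1 and 168 (log2 fold change 1.44, SE 0.23, adjusted p = 0.00693). *Zmat3*, a zinc-finger RNA-binding protein, had 1073, 1239 and 1269.8 against 617, 585 and 590.1 (log2 fold change 0.99, SE 0.15, adjusted p = 0.0039). For each of these 3 every QKO library was above every control. *Gdf15*, a secreted stress cytokine, had 373, 526 and 719 counts in QKO and 185, 206 and 202 in controls (log2 fold change 1.39, SE 0.31, adjusted p = 0.0388); the controls were close together and the QKO libraries were not. *Sesn2*, a sestrin that dampens mTORC1, had 524, 494 and 706 counts against 346, 243 and 271 (log2 fold change 1.00, SE 0.23, adjusted p = 0.0406), without overlap. The related *Sesn1* had 475, 603 and 538 against 581, 464 and 594 (log2 fold change -0.02, SE 0.15, adjusted p = 0.97).

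The other 4 of this role were not called in high CHIR. *Ephx1*, epoxide hydrolase, had 511, 408 and 245 counts in QKO and 143, 120.3 and 97.8 in controls (log2 fold change 1.63, SE 0.43, adjusted p = 0.0725) and was called with the block (adjusted p = 0.00428) and by DESeq2 (adjusted p = 0.0294). *Abhd4* and *Slc19a2*, a lipid hydrolase and a thiamine transporter, had log2 fold changes of 0.72 and 0.84 (adjusted p = 0.0647 and 0.0589, with the block 0.00912 and 0.0205), both without overlap. *Dram1*, which promotes autophagy, held between 4.05 and 40.4 counts in these 6 libraries and its groups overlapped (log2 fold change -0.09).

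**Figure D2:**
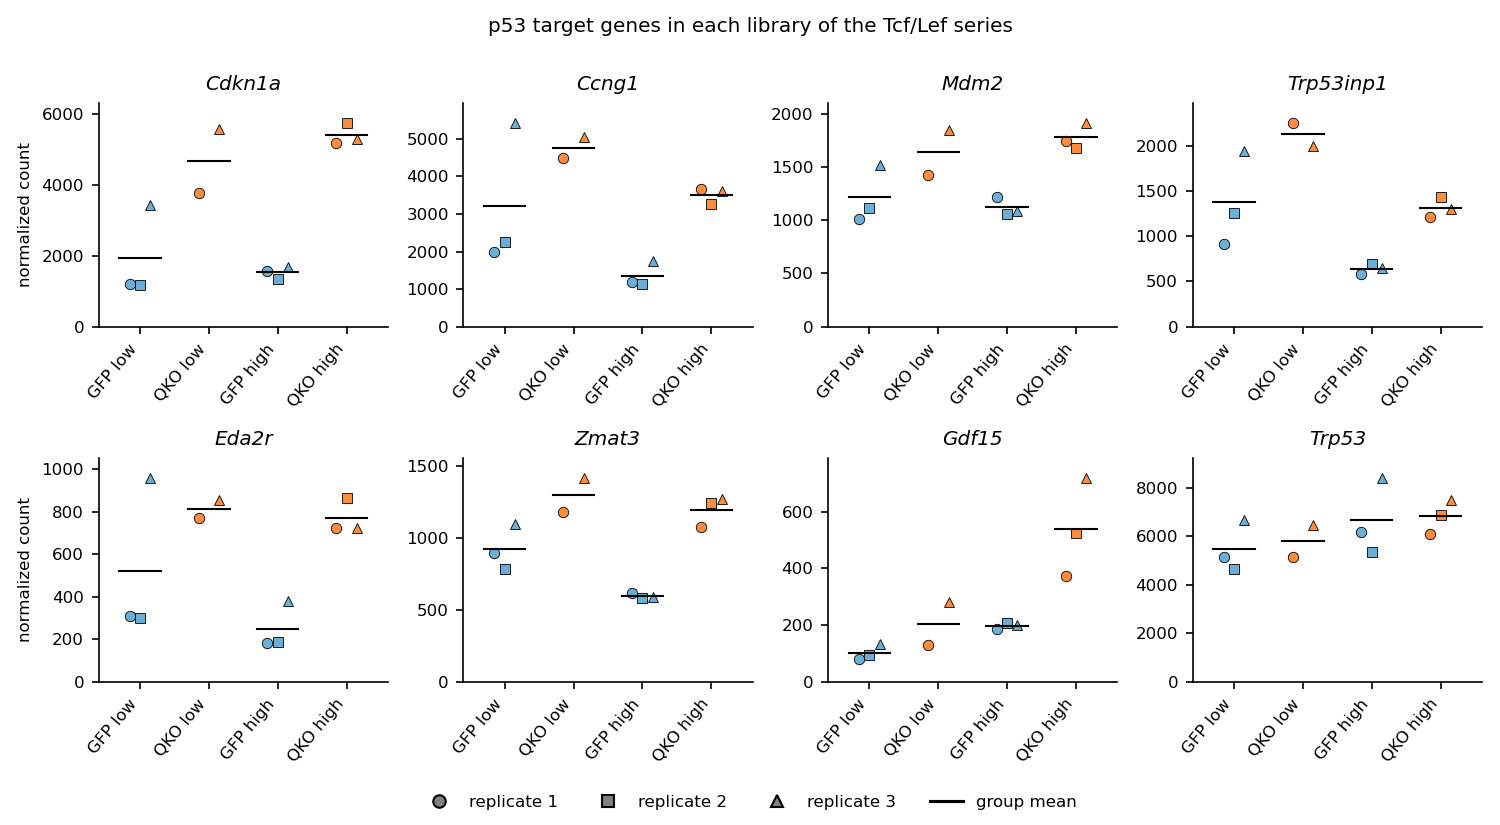
Normalized counts of 8 p53 pathway genes (panels, each with its own axis from 0) in every library of the Tcf/Lef series, with GFP sgRNA controls in blue, QKO in orange, the replicate as the symbol and the group mean as a bar. In high CHIR the QKO and control libraries are apart for every gene shown but *Trp53*, and in low CHIR control replicate 3 (triangle) lies near the QKO libraries for *Cdkn1a* and *Trp53inp1* and above them for *Ccng1* and *Eda2r*.

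In low CHIR, the same guides gave no called member. limma called 0 of 36 and 1 of 15878 genes higher (0.0063%) and none lower (0%). At an unadjusted p under 0.05 were 12 members, all of them higher, against 2.76% of all genes. The replicate block left 0 called (15 at an unadjusted p under 0.05, against 7.55% of genes), edgeR called 0 (10 at an unadjusted p under 0.05, against 5.24%) and DESeq2 called 1 (0.126% of genes), *Ptprv* (log2 fold change 2.10, adjusted p = 0.00574). The median of the 36 members was 0.50 against 0.04 over all genes, with 33 of 36 above 0. The 2 QKO libraries lay above the 3 controls for 10 members and below for none, against 10.2% and 6.25% of all genes. Without control replicate 3, the median was 0.71 with 31 of 36 above 0, 22 members were at an unadjusted p under 0.05, and *Cdkn1a* was called (log2 fold change 1.94, adjusted p = 0.00259).

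*Cdkn1a* had 3758 and 5569 counts in the QKO libraries (replicates 1 and 3) and 1201, 1178 and 3442 in control replicates 1, 2 and 3 (log2 fold change 1.43, SE 0.37, adjusted p = 0.904). *Ccng1* had 4502 and 5036 counts in QKO and 1986, 2261 and 5425 in controls (log2 fold change 0.72, SE 0.34, adjusted p = 0.904). For *Cdkn1a* control replicate 3 came close to the lower QKO library, and for *Ccng1* it exceeded both. *Mdm2* had 1430.1 and 1851 against 1011, 1112 and 1524, *Trp53inp1* 2256 and 1999.7 against 919.7, 1260.3 and 1949 and *Trp53* 5123 and 6448 against 5137, 4645 and 6660.1. Among these 3 the groups overlapped for *Mdm2* and *Trp53* and were apart for *Trp53inp1*. *Fas* had 193 and 149 against 70.9, 57.2 and 169 counts, *Eda2r* 771 and 857 against 308, 302 and 959 and *Aen* 2444 and 3441 against 1589, 1451 and 2708. In each of those the highest control lay above the lower QKO library. *Ptprv* had 1004 and 479 against 253, 111 and 155, *Dcxr* 634 and 741 against 462, 309 and 482 and *Zmat3* 1182 and 1415 against 898, 783 and 1093, all 3 without overlap. *Gdf15* had 129 and 280.5 against 79.5, 93.8 and 133, *Sesn2* 659 and 1080.0 against 634, 487 and 676 and *Ephx1* 432 and 137 against 205, 88.8 and 133, with overlap in each.

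In pairs, the QKO library minus the control of the same number, the median over the 36 members was 0.61 and 0.14 on the log2 scale for low CHIR replicates 1 and 3, and 0.67, 0.97 and 0.64 for high CHIR replicates 1, 2 and 3. Over all genes these medians lay between -0.005 and 0.04. *Cdkn1a* was higher in QKO in 5 of 5 pairs, by between 0.69 and 2.08. *Ccng1* was higher in 4 of 5, with -0.11 in low CHIR pair 3. The difference between the QKO effects in high and in low CHIR was tested directly. limma called 0 of 36 members (20 genes, 0.126%), as did the blocked fit, edgeR and DESeq2, with 3, 8, 2 and 2 members at an unadjusted p under 0.05 (5.1%, 8.79%, 4.36% and 4.52% of genes). In limma these 3 were *Perp* (-2.29, SE 0.67) and *Pmaip1* (-2.19, SE 0.94), with the larger QKO effect in low CHIR, and *Zmat3* (0.50, SE 0.22), with the larger one in high CHIR. So the count of 11 in high CHIR and 0 in low CHIR does not by itself show that the doses differ.

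*Perp*, a tetraspan protein of desmosomes that p53 also induces, had 26.7 and 25.4 counts in the low CHIR QKO libraries and 2.45, 5.92 and 3.46 in their controls (log2 fold change 2.51, SE 0.50, adjusted p = 0.397). The groups were apart. In high CHIR the QKO libraries had 35.6, 36.4 and 55.0 and the controls 18.1, 45.5 and 53.2, and the groups overlapped. *Pmaip1* had 116 and 42.0 counts in low CHIR QKO and 14.7, 10.9 and 83.9 in controls (log2 fold change 1.50, SE 0.70, adjusted p = 0.904), with control replicate 3 between the QKO libraries.

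Further genes of the pathway were read from lists written beside the members. Of 15 further p53 targets, 12 were tested and 6 rose in high CHIR QKO: *Steap3*, a ferrireductase (2.19, adjusted p = 0.0424), *Ak1*, adenylate kinase (1.80, adjusted p = 0.011), *Psrc1* (1.50, adjusted p = 0.0424) and *Ckap2* (0.80, adjusted p = 0.047), both of the mitotic spindle, *Trp53cor1*, the noncoding RNA next to *Cdkn1a* (2.18, adjusted p = 0.00693), and *Tap1*, a peptide transporter (1.88, adjusted p = 0.000557). None fell, and the list's median was 0.79. In the GFP guide controls of this series the same list had a median of -0.65 from low to high CHIR. There 5 fell and 1 rose by limma, against 7.96% and 6.98% of genes. The 6 named above were all lower in high CHIR in those controls, from -0.56 for *Ckap2* to -2.20 for *Steap3*. QKO was set against the same high CHIR controls, so these values are not independent. *Tap1* is also induced by interferon. Of 19 genes of double-strand break repair 1 rose in high CHIR QKO, *Xrcc5* (Ku80, 0.86, adjusted p = 0.036), and none fell. Over all genes 2.05% rose and 0.491% fell in that comparison. By limma none of 11 p53 regulators such as *Mdm4*, *Atm* and *Chek2*, none of 13 targets of ATF4 (the factor of the integrated stress response) and none of 16 cell-cycle genes that p21 lowers through the DREAM complex was called in either direction. At an unadjusted p under 0.05 were 0, 3 and 2 of them, all higher, and the medians were -0.28, 0.27 and 0.27. With the block 8 further targets rose, with *Pml* and *Zfp365* added, as did 2 ATF4 targets, *Ppp1r15a* and *Phgdh*, and 1 DREAM gene, *Aurkb*. Over all genes 5.3% rose with the block. In low CHIR limma called 0 of each of these 5 lists, with 3 further targets and 1 ATF4 target at an unadjusted p under 0.05.

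Markers of the cell types moved in the same libraries. In high CHIR the summed counts of 6 nephron progenitor markers were 3636 to 5120 in QKO and 1019 to 2317 in controls, and 5 of the 6 rose (6 with the block). The 6 ureteric markers summed to 86.8 to 209 in QKO and 240 to 651 in controls, the 5 endothelial markers to 62.7 to 110 and 114 to 216, and the 6 stromal markers to 1214 to 8076 and 1044 to 4053. Across this series *Gata3* reached 590 counts and no other ureteric marker went over 39.6. *Tek* reached 172 and no other endothelial marker went over 45.2. The ureteric and endothelial sums may thus rest largely on 1 gene each and do not by themselves show a change of cell type. With the block 4 of the 5 stromal markers tested rose. Blood markers summed to 24.1 to 58.2 in QKO and 47.8 to 2713 in controls, where 1 control held most of the *Lyz2* counts. No defining marker was at 0 in every library of the table. In low CHIR the nephron progenitor sums were 12229 to 16516 in QKO and 14874 to 17128 in controls. The part of these differences in the p53 target levels was not tested.

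The next comparison asks the same of guides to a single other gene, *Ctnnb1*. With guides to *Ctnnb1* in high CHIR, 2 of 36 members rose and none fell, against 3.44% of 16780 genes that rose and 1.64% that fell. The median of the members was 0.09 and that of all genes 0. The groups of 2 lay apart upward for 8 members and downward for 6, against 30.1% and 31.2% of all genes. The risers were *Fas*, with 124 and 83.6 counts against 51.7 and 23.9 in the GFP guide controls (log2 fold change 1.51, SE 0.36, adjusted p = 0.0284), and *Ptprv*, with 135 and 323 against 21.7 and 58.4 (log2 fold change 2.52, SE 0.56, adjusted p = 0.0211). Both genes had every *Ctnnb1* guide library above every control. edgeR called *Ptprv* alone (4.48% of genes in either direction), and DESeq2 called both and *Rps27l* as lower (8.24% of genes). In those count tests all 4 libraries of this comparison were kept. Leaving out 1 library at a time left between 0 and 1 called: none without *Ctnnb1* guide replicate 2, *Ptprv* without *Ctnnb1* guide replicate 1 or control replicate 2, and *Fas* without control replicate 1. A lone library is then assumed to vary like the other groups. Within each genotype of this series, libraries with the same number deviated together, and a block of the number within genotype left *Fas* and *Ptprv* called.

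The genes named above for QKO had these values. *Cdkn1a* had 2333 and 2215 counts with the *Ctnnb1* guides and 2357 and 1832 with the GFP guide (log2 fold change 0.13, SE 0.34, adjusted p = 0.875). *Ccng1* had 1510.2 and 1988 against 1304 and 1518 (log2 fold change 0.30, SE 0.37, adjusted p = 0.709) and *Mdm2* 1014 and 1253 against 1210.2 and 1165 (log2 fold change -0.08, SE 0.18, adjusted p = 0.861). All 3 overlapped between groups. *Trp53inp1* had 314 and 426 against 355 and 347, *Trp53* 6042 and 6212 against 6201 and 5544 and *Aen* 1228 and 1473 against 1287 and 1029. *Eda2r* had 168 and 226 against 211 and 227, *Sesn2* 1836 and 1353 against 1676 and 1453 and *Gdf15* 1204 and 702 against 1377 and 1013. Those 6 likewise overlapped. *Dcxr* had 448 and 496 against 354 and 349 and was apart upward, *Zmat3* had 467 and 431 against 539 and 515 and was apart downward, and *Ephx1* had 633 and 393 against 429 and 306. None of these 3 was called (log2 fold changes 0.42, -0.23 and 0.46).

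In low CHIR, limma called 0 members with the *Ctnnb1* guides, in a comparison with 6 genes called higher (0.0358%) and 3 lower (0.0179%). Of the members only *Rps27l* had an unadjusted p under 0.05 (log2 fold change -0.52), as did 3.43% of genes, and edgeR and DESeq2, without GFP guide control replicate 1, called 0 members as well. The median was -0.10, and the groups lay apart downward for 10 members and upward for 1, against 14% and 16.1% of all genes. *Cdkn1a* had 1323 and 1443 counts against 1577 and 2001 and was lower without overlap (log2 fold change -0.36, SE 0.34, adjusted p = 1). *Ccng1* had 2066 and 2967 against 1997 and 3293, *Mdm2* 1040.5 and 1105 against 880.3 and 1207 and *Trp53* 6972 and 5547 against 6849 and 6667, each with overlap. *Fas* had 193 and 164 against 151 and 177, *Ptprv* 314 and 270.0 against 391 and 403 and *Ephx1* 386 and 231 against 402 and 248 counts. Of these, *Ptprv* was lower without overlap. *Trp53inp1* had 427 and 629 against 458 and 1044, *Aen* 1175 and 1011 against 1379 and 1444 and *Eda2r* 144 and 190.1 against 196 and 331. *Sesn2* had 1015 and 664 against 1141 and 734, *Dcxr* 558 and 561 against 624 and 748, *Gdf15* 242 and 118 against 318 and 92.0 and *Zmat3* 422 and 316 against 461 and 589.8. *Aen*, *Eda2r*, *Dcxr* and *Zmat3* were again lower without overlap.

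Cre removes the same gene without a guide. In high CHIR 3 of 36 members rose and none fell, against 5.9% and 2.75% of genes, with medians of 0.01 for the members and -0.02 for all genes. *Fas* had 286 and 233 counts with Cre and 19.3 and 21.8 without (12.0-fold, log2 fold change 3.59, SE 0.36, adjusted p = 2.85e-05). *Ptprv* had 26.3 and 15.8 against 0.921 and 4.15 (log2 fold change 2.77, SE 0.56, adjusted p = 0.00686), a fold that rests on very few control counts, and *Ephx1* 444 and 444 against 212 and 159 (log2 fold change 1.27, SE 0.35, adjusted p = 0.0397). Each was apart from its controls. edgeR and DESeq2 called *Fas* alone (5.45% and 8.3% of genes) in fits without Cre replicate 1, and leaving out 1 library at a time left between 1 and 2 members. *Fas* was kept in each of those fits, *Ptprv* was lost without replicate 1 of either group, and *Ephx1* was lost in all 4. With the number as a block within genotype 6 members rose, against 10.2% of genes: these 3, *Plk2*, *Btg2* and *Ccng1*. *Plk2* had 2497 and 2840 counts with Cre and 1209 and 1375 without (log2 fold change 1.05, SE 0.33, adjusted p = 0.0691, and 0.00293 with this block), and was also called with 1 block over the whole series (adjusted p = 0.00576) and with the libraries of the compared groups alone (adjusted p = 0.0356). *Btg2* had 1061 and 1164 against 583 and 609 (log2 fold change 0.90, adjusted p = 0.357, and 0.00568 with the block). Both were apart from their controls. *Ccng1* (log2 fold change 0.51, adjusted p = 0.024 with the block) was higher with Cre within each number but overlapped between groups. The groups lay apart upward for 9 members and downward for 6, against 24.2% and 23.1% of genes. *Cdkn1a* had 1183 and 1531 against 1269 and 1032 (log2 fold change 0.23, SE 0.34, adjusted p = 0.754), *Ccng1* 1357 and 2209.9 against 924 and 1607 and *Mdm2* 1193 and 1163 against 1291 and 1211. *Trp53* had 5260.4 and 5822 against 6161 and 5951, *Trp53inp1* 246 and 373 against 264 and 458 and *Zmat3* 334 and 489 against 261 and 329.9. None of these 6 was called in that fit. *Aen* had 693 and 1498 against 906 and 1049, *Eda2r* 95.9 and 177 against 138 and 219 and *Dcxr* 350.4 and 316 against 236 and 238, also not called. *Sesn2* (1380.2 and 244 against 1558 and 215) and *Gdf15* (495 and 81.4 against 869.9 and 50.8) differed more between replicates than between groups.

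In low CHIR Cre gave 0 called members by limma, edgeR and DESeq2, where limma called 0.179% of genes higher and 0.149% lower. At an unadjusted limma p under 0.05 were 4 members, against 10.7% of genes. These were *Fas*, with 316 and 252 counts with Cre and 99.9 and 134 without (log2 fold change 1.28, SE 0.36, adjusted p = 0.181), *Sesn1* (0.41), *Trp53* (-0.33) and *Dcxr* (-0.48). *Fas* and *Sesn1* were higher and *Trp53* and *Dcxr* lower with Cre. With the block within genotype *Fas* was called (adjusted p = 0.0434), the 1 member that was, against 1.63% of genes called higher. *Cdkn1a* had 456 and 1159 counts with Cre against 664 and 1007 without, *Ccng1* 1333 and 2352 against 1478 and 2337, and *Mdm2* 941 and 1087 against 992 and 1136. *Trp53* had 4789 and 5026 against 6139.9 and 6209, *Ptprv* 32.1 and 27.04 against 22.2 and 25.6, and *Ephx1* 300.1 and 371 against 192 and 333. Replicates 1 and 2 differed widely for *Cdkn1a* and *Ccng1* in both groups. *Trp53inp1* had 442 and 538 against 361 and 602, *Aen* 547 and 1250.1 against 1160.5 and 1536, and *Eda2r* 67.3 and 180.2 against 133 and 311. *Sesn2* had 529 and 252 against 1232 and 283, *Dcxr* 398 and 339 against 592 and 441, *Gdf15* 95.2 and 46.3 against 219 and 26.6, and *Zmat3* 288 and 379.8 against 379 and 413. Of those 7, *Dcxr* had Cre libraries wholly below the controls.

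**Figure D3:**
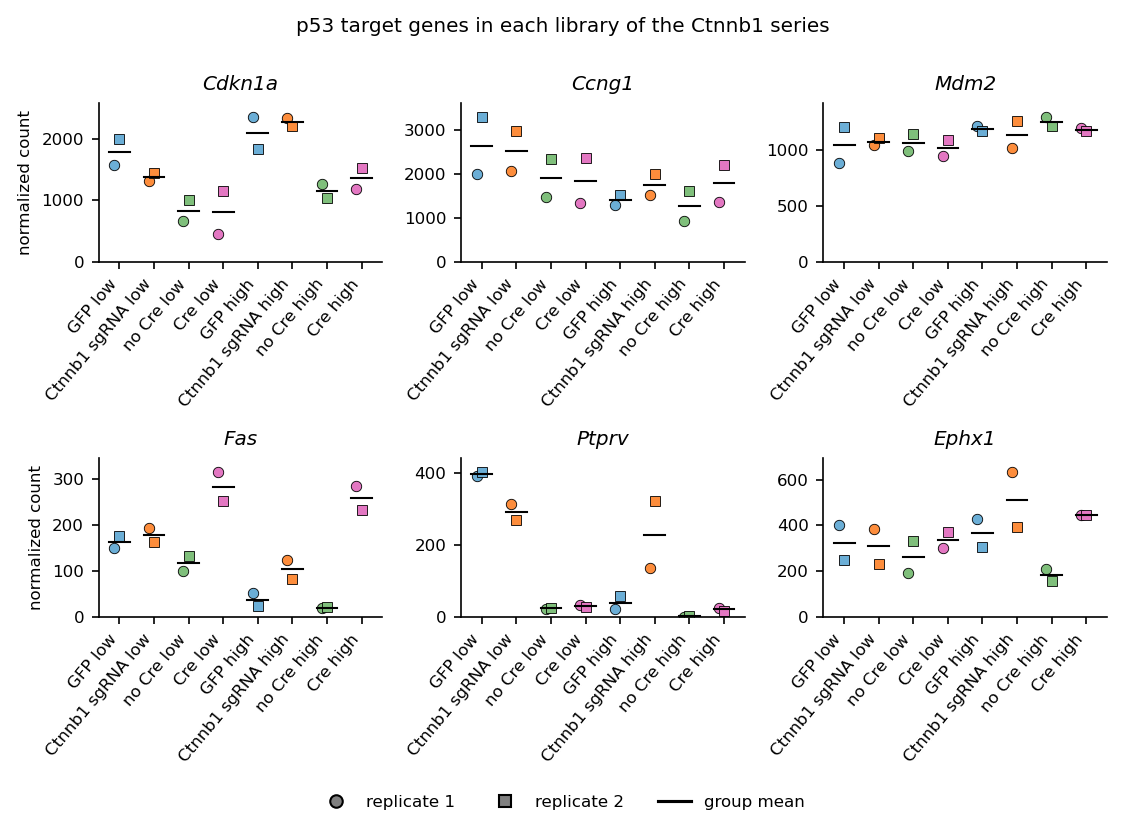
Normalized counts of 6 p53 pathway genes (panels, each with its own axis from 0) in every library of the Ctnnb1 series, with the GFP guide in blue, the *Ctnnb1* guides in orange, no Cre in green and Cre in pink, the replicate as the symbol and the group mean as a bar. In high CHIR *Cdkn1a* and *Ccng1* overlap with their controls under guides and Cre, *Mdm2* overlaps under the guides and lies slightly below under Cre, whereas *Fas* and *Ptprv* lie above their controls in high CHIR with either way of removing *Ctnnb1*.

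Guides and Cre were compared within this series, each against its own control. The difference of the effects was called by limma for 0 of 36 members in high and in low CHIR, with 0 of all genes called (0%) and 1 member at an unadjusted p under 0.05 at each dose (3.34% of genes in high and 3.25% in low CHIR). That member was *Fas*, with a smaller rise under the guides than under Cre (difference of log2 fold changes -2.08, SE 0.50, adjusted p = 0.774 in high CHIR and -1.16, SE 0.50, adjusted p = 0.999 in low CHIR). edgeR, DESeq2 and the fit with the block within genotype also called 0. For *Cdkn1a* the difference was -0.10 (SE 0.48) in high CHIR and -0.19 (SE 0.48) in low CHIR. With 2 libraries a group a missed threshold does not show that guides and Cre act alike.

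In high CHIR, 2 of 12 further p53 targets rose with the guides, *Steap3* (3.22, adjusted p = 0.00335) and *Pml*, the scaffold of nuclear bodies (0.82, adjusted p = 0.0149), against 3.44% of genes. With Cre 3 rose, *Steap3* (3.08, adjusted p = 0.00235), *Zfp365* (1.27, adjusted p = 0.0251) and *Tap1* (2.39, adjusted p = 0.000529), and *Ccng2* fell (-0.83, adjusted p = 0.022). Over all genes 5.9% rose and 2.75% fell with Cre in high CHIR. None of 19 break repair genes was called by limma with guides or Cre in high CHIR, with 1 at an unadjusted p under 0.05 in each, both lower. Of the 16 DREAM genes, the mitotic genes *Aurka* (-0.69, adjusted p = 0.0134) and *Kif20a* (-0.64, adjusted p = 0.0444) fell with Cre in high CHIR, where 7 of the 16 were at an unadjusted p under 0.05, all lower, and none was called with the guides (3 at an unadjusted p under 0.05, all higher). In low CHIR with Cre 14 of the 16 were at an unadjusted p under 0.05, all lower, the median was -0.68 and *Aurka* fell (-0.84, adjusted p = 0.0405); with the guides the median was 0.006 and none was at an unadjusted p under 0.05. With the block within genotype 6 of the 16 fell with Cre in low and 4 in high CHIR, and *Mki67* rose with the guides in high CHIR. The share of all genes that fell with Cre under this block is not reported here, so these falls have no background beside them. Limma called 0 of 10 tested p53 regulators (1 and 2 at an unadjusted p under 0.05) and 0 of 13 ATF4 targets (1 and 1) with guides and Cre in high CHIR. With the block 1 and 2 of the regulators fell (*Chek1* with both, *Chek2* with Cre), as did 1 and 2 of the ATF4 targets, and 4 further p53 targets rose with each. Over all genes 7.94% rose and 4.77% fell with the guides in that fit, and 10.2% rose with Cre. In low CHIR none of these 3 lists held a called gene in limma, and with the block 1 further target and 2 ATF4 targets fell with Cre. Nephron progenitor markers moved here too: their sum in high CHIR was 10141 to 10791 with the *Ctnnb1* guides and 3245 to 3848 with the GFP guide, and 10636 to 12432 with Cre and 2566 to 4178 without. The endothelial marker sum was 627 to 1055 and 71.8 to 158 for the guides, and 561 to 925 and 59.1 to 63.5 for Cre, with *Emcn* called higher in both (log2 fold changes 3.27 and 4.09). In this series *Emcn* reached 1174 counts and no other endothelial marker went over 21.9, so that sum is largely *Emcn*. The part of these markers in the p53 target levels was not tested.

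**Figure D4:**
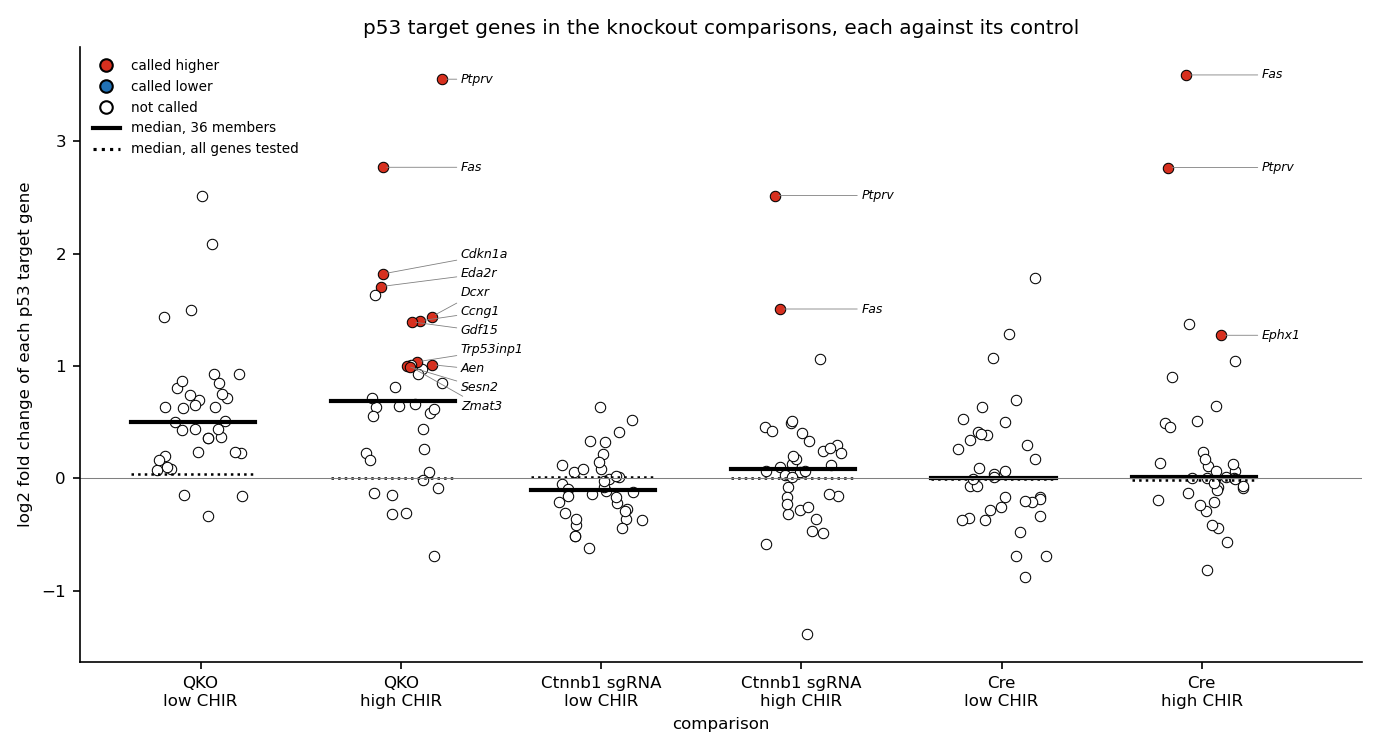
Log2 fold change of each of the 36 p53 pathway genes (points) in the 6 knockout comparisons, each against its own control and dose, with called members in red and named, the median of the members as a solid bar and that of all genes tested as a dotted bar. The solid bar stands at 0.50 and 0.69 for QKO in low and high CHIR and between -0.10 and 0.09 in the 4 comparisons of the Ctnnb1 series. No member was called lower.

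The series are set side by side without a test. They were normalized separately and differ in the genes removed, culture time and cells. Whether they differ in the number of guides is not known, as the sources do not say if the *Ctnnb1* guides were given together. The 11 members that rose in high CHIR QKO had a median log2 fold change of 1.40 there and 0.74 in low CHIR QKO, where all 11 were above 0. These 11 were picked by their values in high CHIR QKO. Their higher median there than elsewhere, and than that of the other 25, follows in part from that choice. With the *Ctnnb1* guides the same 11 had medians of 0.13 in high CHIR, from -0.36 for *Gdf15* to 2.52 for *Ptprv*, and -0.36 in low CHIR. With Cre the medians were 0.23 and -0.21. The other 25 members had medians of 0.56 in high CHIR QKO, 0.36 in low CHIR QKO, and between -0.005 and 0.09 in the Ctnnb1 series. Across the 6 knockout comparisons, in the fits without a block, 12 members rose in at least 1, *Ephx1* being the one that did so with Cre and not in QKO. *Fas* and *Ptprv* were called in high CHIR QKO, with the guides and with Cre. 

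The CHIR dose alone was read in cells without a knockout. In the GFP guide controls of the Tcf/Lef series, 2 members rose and 10 fell from low to high CHIR, against 6.98% and 7.96% of genes, with medians of -0.34 for the members and 0.004 for all genes. These high CHIR controls are the ones against which QKO was set, so the comparisons share libraries and their values are not independent. *Pmaip1* had 366, 518 and 258 counts in high against 14.7, 10.9 and 83.9 in low CHIR (log2 fold change 3.87, SE 0.63, adjusted p = 0.0014), and *Perp* 18.1, 45.5 and 53.2 against 2.45, 5.92 and 3.46 (log2 fold change 2.94, SE 0.44, adjusted p = 0.000893). Both rose without overlap. The 10 that fell were *Fas* (log2 fold change -3.01), *Ptprv* (-1.93), *Dcxr* (-1.60), *Ccng1* (-1.12), *Sesn2* (-1.06), *Trp53inp1* (-1.04), *Phlda3* (-0.96), *Abhd4* (-0.66), *Zmat3* (-0.62) and *Ercc5* (-0.56), with adjusted p between 0.00065 and 0.0418. Of the 11 members that rose in high CHIR QKO, 7 are among them. *Cdkn1a* (-0.15, adjusted p = 0.822) and *Mdm2* (-0.09, adjusted p = 0.768) were not called. With the replicate block *Plk2* (-1.02, adjusted p = 0.00868) and *Eda2r* (-0.93, adjusted p = 0.0463) fell as well and *Gdf15* (0.98, adjusted p = 0.00388) rose. edgeR called 6 of the 12 (10.3% of genes), DESeq2 10 of them and *Plk2* (13.7% of genes), and 7 were called without high CHIR control replicate 2. Without low CHIR control replicate 3, 10 members were called, 15 of 36 were above 0 in place of 11 and the median was -0.10. The nephron progenitor marker sum was 1019 to 2317 in these high CHIR controls and 14874 to 17128 in the low CHIR controls. The ureteric marker sum was 240 to 651 and 32.6 to 85.6, where *Gata3* reached 590 counts and no other ureteric marker went over 39.6. Of 13 ATF4 targets, 3 rose and none fell by limma, against 6.98% and 7.96% of genes. The part of these markers and of the ATF4 targets in the member values, *Perp* included, was not tested.

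The controls of the Ctnnb1 series moved fewer members. With the GFP guide, 2 rose from low to high CHIR and 3 fell, against 2.98% and 4.53% of genes: *Plk3*, with 202 and 165 counts in high and 67.6 and 51.9 in low CHIR (log2 fold change 1.61, SE 0.45, adjusted p = 0.0482), and *Pmaip1*, with 113 and 156 against 6.95 and 19.5 (log2 fold change 3.39, SE 0.81, adjusted p = 0.0212), rose. Those that fell were *Fas* (log2 fold change -2.18, adjusted p = 0.00177), *Ptprv* (-3.44, adjusted p = 0.00179) and *Dcxr* (-0.95, adjusted p = 0.00728). In the c/c cells without Cre none rose and 3 fell, against 2.8% and 5.24% of genes. With the number as a block within genotype the counts were 10 and 7. With the GFP guide 3 members then rose and 7 fell, against 6.92% and 8.34% of genes, and *Gdf15* (2.78, adjusted p = 0.00127) was added to the risers and *Btg2* (-1.09, adjusted p = 0.00179), *Ccng1* (-0.87, adjusted p = 0.000757), *Trp53inp1* (-0.98, adjusted p = 0.0115) and *Abhd4* (-0.66, adjusted p = 0.00889) to those that fell. Without Cre 2 rose, *Pmaip1* (2.13, adjusted p = 0.0174) and *Xpc* (0.70, adjusted p = 0.0189), and 5 fell, with *Btg2* (-0.67, adjusted p = 0.0333) and *Ccng1* (-0.61, adjusted p = 0.00871) added, against 6.04% and 9.82% of genes. The 3 that fell without a block were again *Fas* (-2.44, adjusted p = 0.000664), *Ptprv* (-2.98, adjusted p = 0.00431) and *Dcxr* (-1.11, adjusted p = 0.00228). For *Fas*, *Ptprv* and *Dcxr* each high CHIR control library was below each low CHIR control library of its series in these 3 comparisons. With the GFP guide, leaving out a high CHIR library left *Fas* and *Ptprv* called, and leaving out low CHIR replicate 1 or 2 left 3 called, *Fas* and *Ptprv* with *Dcxr* or *Pmaip1*. Without Cre, leaving out low CHIR replicate 2 gave 5, with *Pmaip1* and *Polk* higher. The nephron progenitor marker sum was 15206 to 20437 in low CHIR and 3245 to 3848 in high CHIR with the GFP guide, and 14811 to 20382 and 2566 to 4178 without Cre. With the block within genotype, 12 of 13 ATF4 targets rose with the GFP guide (median 1.56) and 6 without Cre (median 1.02). This stood against 6.92% and 6.04% of genes, and none fell. By limma without a block 2 and 1 rose, against 2.98% and 2.8%. Of 12 further p53 targets, 5 and 4 fell with the block and none rose, against 8.34% and 9.82% of genes that fell. The part of these markers and lists in the member values was not tested.

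In Wild Type NPCs 1 member rose from low to high CHIR at a log2 fold change of at least 1, the threshold used for this comparison, and none fell, against 3.99% and 3.61% of genes. This was *Perp*, with 276, 254 and 249.6 counts in high and 130.1, 63.6 and 67.1 in low CHIR (log2 fold change 1.65, SE 0.33, adjusted p = 0.00937). Without low CHIR replicate 1 it was again the 1 member called (1.97, adjusted p = 0.00546). *Fas* had 73.9, 6.98 and 24.3 against 113, 85.5 and 76.6 counts (log2 fold change -1.89, SE 0.63, adjusted p = 0.0894) and *Dcxr* 384, 322 and 278 against 578, 513 and 400.0 (log2 fold change -0.59, SE 0.19, adjusted p = 0.0812). Both were lower without overlap and not called. *Cdkn1a* was spread by 1 library, with 4081, 2418 and 25493 counts in high CHIR replicates 1, 2 and 3 and 2842, 1461 and 1172 in low CHIR (log2 fold change 1.90, SE 0.71, adjusted p = 0.127). *Pmaip1* had 589, 708 and 18.7 against 39.4, 42.7 and 47.9 (log2 fold change 2.19, SE 1.12, adjusted p = 0.26), and the same high CHIR replicate 3 was the one at 18.7. *Ptprv* had 41.5, 11.2 and 274 against 84.1, 48.4 and 76.6 counts, again with replicate 3 the highest. Without that library *Pmaip1* was called with *Perp* (log2 fold change 3.87, adjusted p = 0.000103). Without high CHIR replicate 2, *Cdkn1a* was (2.59, adjusted p = 0.0367), and without replicate 1, *Fas* (-2.69, adjusted p = 0.00733) and *Eda2r* (-1.41, adjusted p = 0.034) were. The nephron progenitor marker sum was 301 to 384 in high and 8954 to 13851 in low CHIR. The ureteric marker sum was 1099 to 5770 in high and 369 to 798 in low CHIR, higher in the dose where *Perp* was. Among Wild Type libraries *Gata3* reached 4283 counts and no other ureteric marker went over 791, so this sum leans on 1 gene. The part of either sum in the member values was not tested.

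From low to no CHIR, no Wild Type member rose and 3 fell, against 2.37% and 2.6% of genes. *Phlda3*, a repressor of Akt, had 657, 391 and 513 counts with no CHIR and 2297, 1292 and 1502 in low CHIR (log2 fold change -1.69, SE 0.25, adjusted p = 0.00735). *Xpc* had 422, 395 and 385 against 703, 612 and 608 (log2 fold change -0.67, SE 0.13, adjusted p = 0.0231), and *Slc19a2* 129, 86.4 and 107 against 225, 192 and 176 (log2 fold change -0.88, SE 0.22, adjusted p = 0.0462). Each of the 3 lay wholly below. *Phlda3* alone was called when low CHIR replicate 1, 2 or 3 or no CHIR replicate 2 or 3 was left out, and the same 3 were called without no CHIR replicate 1. *Cdkn1a* had 2502, 1382 and 1987 counts with no CHIR, which overlapped low CHIR.

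For the other members named for QKO, the Wild Type counts are given in the order high, low and no CHIR. *Ccng1* had 2263, 1935 and 1578 counts in high, 3683, 2509 and 2455 in low and 2922, 1443 and 2106 with no CHIR. *Mdm2* had 1699.7, 1223 and 1808, then 1419, 1429.9 and 1129, then 1361, 859 and 1155, and *Trp53* 7536, 7623 and 6450.2, then 7962, 8784 and 7283, then 7755, 7728 and 6926. *Trp53inp1* had 632, 447 and 1106, then 784, 477 and 462, then 755, 430.3 and 469, and *Aen* 2450.3, 1977 and 1799, then 2419, 1877 and 1737, then 2019, 1243 and 1486. *Ccng1* was lower in high than in low CHIR without overlap, and the rest overlapped. *Eda2r* had 157, 73.98 and 91.6, then 290.4, 201 and 182, then 146, 79.0 and 139.6, and *Sesn2* 458, 230.3 and 436, then 564, 617 and 341, then 543, 291 and 383. *Gdf15* had 267, 152 and 110.3, then 167, 300.0 and 81.4, then 136, 132 and 139.6, and *Zmat3* 617, 514 and 574, then 681, 354 and 407, then 503, 344 and 417. *Ephx1* had 281, 138 and 97.2, then 229, 155 and 119, then 347, 177 and 236. *Eda2r* was highest in low CHIR without overlap with either dose, and the others overlapped. With no CHIR, *Fas* had 156, 149 and 146, *Dcxr* 579, 742 and 670.2 and *Ptprv* 67.8, 29.3 and 39.1 counts. *Fas* and *Dcxr* thus lay above low CHIR without overlap. None of these 13 members was called at either dose.

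**Figure D5:**
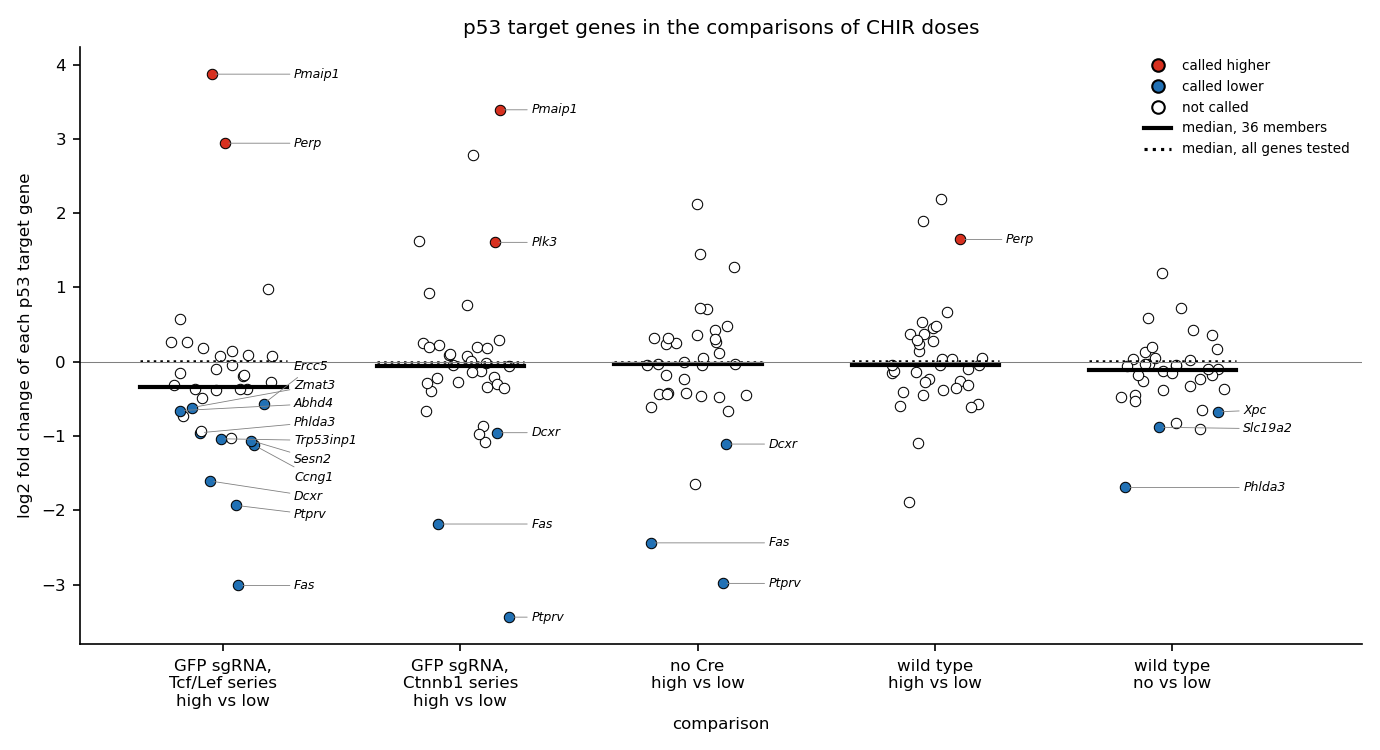
Log2 fold change of each of the 36 p53 pathway genes (points) in the 5 comparisons of CHIR doses in cells without a knockout, with called members named in red (higher) or blue (lower), the median of the members as a solid bar and that of all genes tested as a dotted bar. The GFP guide controls of the Tcf/Lef series have the most called members, 2 higher and 10 lower, and *Fas*, *Ptprv* and *Dcxr* are called lower in the 3 comparisons on the left.

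Of the 36 members, 16 were called in none of the 11 comparisons of a knockout or a CHIR dose by limma without a block: *Apaf1*, *Bax*, *Bbc3*, *Btg2*, *Ddb2*, *Dram1*, *Ei24*, *Mdm2*, *Pidd1*, *Plk2*, *Polk*, *Rps27l*, *Rrm2b*, *Sesn1*, *Tnfrsf10b* and *Trp53*. *Trp53* lay between -0.33 and 0.27 in all 11 and *Mdm2* between -0.25 and 0.66, the upper end of *Mdm2* being high CHIR QKO. Within these, *Btg2*, *Mdm2*, *Bax*, *Tnfrsf10b* and *Polk* were called in high CHIR QKO once the replicate block was used. With the block within genotype *Plk2* and *Btg2* were called higher with Cre in high CHIR, and *Btg2* lower in high than in low CHIR in both controls of the Ctnnb1 series. *Rps27l* was called lower with the *Ctnnb1* guides in high CHIR by DESeq2 (log2 fold change -0.59, adjusted p = 0.0332) and with the compared groups alone (adjusted p = 0.0264), *Plk2* was called lower in high CHIR Tcf/Lef controls with the block and by DESeq2, *Btg2* was called lower in the GFP guide controls of the Ctnnb1 series by DESeq2 (adjusted p = 0.0359), and *Polk* in 1 fit with a library left out.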

How the data were processed

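RNA was read from 36 libraries of sorted or Wild Type NPCs (15 groups of 2 or 3). The authors aligned reads with STAR to a combined mouse and human genome of Ensembl release 76 (GRCm38 for mouse), counted unique, unambiguous reads per gene with featureCounts, and deposited normalized counts: a signal, reads divided by 1 size factor per library, in 3 tables. Whole reads were recovered from it (100% of values within 0.01 of a whole read). The 8 deposited comparison tables hold the authors' fold changes and p-values and 50 columns of values, and were not used.

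Groups came from the labels. Genes averaging 10 or more normalized counts were tested with limma 3.58.1 on log2(normalized count + 1) over all libraries of a table, with trend and Benjamini-Hochberg adjustment over all genes tested. A call asked for a log2 fold change of 0.5 or more at an adjusted p under 0.05 (1 for Wild Type high against low CHIR). edgeR 4.0.16 and DESeq2 1.42.0 (R 4.3.3) were run on the recovered reads. They left out 3 libraries, 1 in the Tcf/Lef and 2 in the Ctnnb1 table, in which a read is worth close to 1 normalized count. The fits were tested on simulated data. Alternatives were the pseudocount, the filter, TMM scaling, fewer libraries, the fold asked for and a replicate block. In the Tcf/Lef series the deviations of libraries with the same number correlated at 0.21 to 0.64 (15 pairs, across genes), against -0.64 to 0.07 for different numbers, so the numbers were taken as pairs. Deviations from a group mean sum to 0, which by itself pushes the values for different numbers below those for the same number when the latter are positive. In the Ctnnb1 series same-numbered libraries correlated at 0.12 to 0.49 within the Cas9-eGFP and 0.33 to 0.52 within the c/c cells (12 pairs each) and at -0.27 to 0.28 between the genotypes (32 pairs), so the numbers were taken as pairs within a genotype, by a block added after seeing the data. With 2 libraries in a group their deviations are mirror images. The pairs of this series therefore repeat each value, and different numbers give the same values with the sign turned.

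The members and lists were chosen with earlier results of these data known. Named in full are members called in any knockout comparison and *Cdkn1a*, *Mdm2*, *Ccng1*, *Trp53inp1* and *Trp53*; other genes are named as targeted genes, as called genes of the lists, or after their values were seen (*Btg2*, *Bax*, *Bbc3*, *Pmaip1*, *Perp*, *Tnfrsf10b*, *Polk*, *Xpc*, *Sesn1*, *Plk3*, *Phlda3*, *Slc19a2*, *Plk2*, *Rps27l*, and the list genes called with a block). The break repair list with the block within genotype is not reported here. Reads were counted without strand. Exons of 8 of the 36 members overlap another gene.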

Additional observations from a re-analysis of the deposited data

How the results depend on the processing

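Of 597 values of a called member under an alternative, 468 kept their call, 129 kept their direction and lost it, and none turned. The number called in high CHIR QKO was 11, and 20 with the replicate block, 3 by edgeR, 3 to 8 when 1 library of either group was left out, and 16 without low CHIR control replicate 3, a choice made after seeing the data. In low CHIR QKO it was 0, and 1 by DESeq2 and 0 to 1 with a library left out. With the *Ctnnb1* guides in high CHIR, 2 became 1 by edgeR and 0 to 1 with a library left out, and with Cre 3 became 1 by edgeR, 1 by DESeq2 and 1 to 2. In Wild Type, high against low CHIR, 1 became 4 by DESeq2 and 1 to 3 with a library left out, and for no against low CHIR 3 became 1 at a log2 fold change of at least 1 and 1 to 3. From low to high CHIR in controls, 12 became 6 by edgeR and 7 to 11 with a library left out in the Tcf/Lef series, 5 became 2 to 3 with the GFP guide of the Ctnnb1 series, and 3 became 1 with the libraries of the compared groups alone and 2 to 5 without Cre. The cause was not tested, beyond the fewer libraries these fits hold. In the Ctnnb1 series a replicate block within each genotype, added after seeing the data, gave 6 with Cre in high and 1 in low CHIR, 10 for the GFP guide controls and 7 without Cre, and 1 block over both genotypes gave 9 and 6 in those controls. In Wild Type, where same-numbered libraries correlated at -0.02 to 0.27 (9 pairs) and were not taken as pairs, the block gave 2 for high against low CHIR. The block changed no other count by over 1.5 times. The differences between QKO effects at the doses, and between guides and Cre, held 0 called members under every alternative run. With 2 libraries in a group, leaving 1 out assumes that the other varies like the remaining groups. At 13089780 to 76071568 reads on genes, members with few counts (*Fas*, *Perp*, *Dram1*, *Bbc3*, and *Ptprv* in cells with Cre) have the least certain folds.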
